A study of Mus musculus with 6 samples.

Results

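Pi16 adventitial fibroblasts of injured mouse quadriceps were examined as 470 of 60282 deposited single-cell barcodes. Both groups were Cdh5-CreERT2:R26R-tdTomato mice, in which the promoter of the endothelial gene Cdh5 drives a tamoxifen-dependent recombinase that switches on a red reporter, so marked cells are endothelial cells and whatever descends from them. In the group called CLL, 3 mice were given clodronate liposomes into a vein, which partly ablate circulating monocytes and so limit the macrophages that enter the muscle. In the group called SHAM, 3 mice were given liposomes with PBS. The injections took place 1 day before the muscle was injured with cardiotoxin, a snake toxin that kills muscle fibres, and again 2 days after it, and the muscle was dissociated 5 days after injury. Each library came from its own mouse, so the mouse is the replicate. The sources used here do not give sex, age, doses or the timing of tamoxifen. Below, 3 values in a row stand for replicates 1 to 3 of the group named.

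Pi16, a secreted peptidase inhibitor, marks fibroblasts that sit in the adventitia, the outer sleeve of vessels, and in the fascia around muscle. Such cells are found in many organs, express progenitor genes such as Dpp4 and Cd55, and are described as a reserve from which more specialised fibroblasts arise. In muscle they stand beside the interstitial fibro-adipogenic progenitors, which lie between the fibres and support repair of the fibres after injury.

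The members were chosen by their transcripts. A barcode needed at least 500 genes and at most 15% mitochondrial UMIs (unique molecular identifiers, that is counted RNA molecules), and 6 matrix genes (Col1a1, Col1a2, Col3a1, Dcn, Lum, Postn) had to hold at least 2% of its UMIs, with no UMI of the leukocyte gene Ptprc or the tendon gene Tnmd and at most 2 of 4 cell cycle genes. These conditions make the fibroblast gate, with 11741 barcodes. A member also had a UMI of Pi16 and of at least 3 of 5 genes in all: Pi16, Sema3c (a guidance cue), Cd248 (endosialin), Tnxb (the matrix protein tenascin-X) and Dpp4 (a surface peptidase). The CLL libraries held 70, 131 and 68 members, and the SHAM libraries 116, 60 and 25. No member shared its barcode with a member of another library; among all barcodes that passed the gene and mitochondrial filters, 196 were shared, summed over pairs of libraries.

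The rule is a threshold on detection. The 205 members with exactly 3 of the 5 genes had a median of 10373 UMIs and pooled levels of 153 CPM for Pi16, 416 CPM for Igfbp6 and 384 CPM for Clec3b (CPM, UMI counts scaled to a common total). The 228 fibroblasts just outside, with Pi16 and 1 other gene, had a median of 5618 UMIs, a like level of Pi16 at 163 CPM, and lower levels of Igfbp6 at 267 CPM and Clec3b at 277 CPM. The 265 members with 4 or 5 genes carried far more, at 797 CPM for Pi16, 972 CPM for Igfbp6 and 1286 CPM for Clec3b. The members are thus a graded set.

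Depth and quality differed between the libraries. Median UMIs per member were 19316, 7263 and 16802.5 in the CLL libraries, but 4861.5, 25768 and 37003 in the SHAM libraries. SHAM replicate 1 was the shallowest, and SHAM replicate 3 stood apart with a median of 0.0759% mitochondrial UMIs, against 1.52% to 3.22% in the others. Macrophage RNA was also uneven. The 17 macrophage markers summed to 98.7 to 191 CPM (from here on after TMM scaling, a correction for unequal RNA composition) in CLL members and to 291 to 3635 CPM in SHAM members, highest in SHAM replicate 1. There 25 members had at least 0.2% macrophage UMIs, against 2 in SHAM replicate 2, 3 in CLL replicate 2 and 0 in the others. Endothelial markers summed to 30.0 to 65.0 CPM in CLL members and 56.7 to 353 CPM in SHAM members, and 12 lymphoid and granulocyte markers to at most 20.1 CPM in any library, with 6 of the 12 at 0 throughout.

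Against the rest of the fibroblast gate, the members carried the adventitial pattern beyond the genes that chose them. This is a description of the choice and was given no test. Of the 5 marker genes named for these cells, Igfbp6, which binds insulin-like growth factors, is the only one the rule did not use. Its mean level was 771 CPM in members and 189 CPM in other fibroblasts, with a median log2 ratio of 2.12 (1.38 to 2.78), the lowest and highest of the 6 libraries in brackets. Of 37 measured genes of a list of adventitial progenitor genes, 29 were higher in members in all 6 libraries. Beside this, 2270 genes had at least 50 CPM in every library in members or in others. Of these, 390 were higher in members in all 6 libraries. The list itself was not limited to that level. The list's median log2 ratio was 1.81 against -0.03 over all genes measured in both.

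The ratios named next are the largest outside the rule among genes with at least 50 CPM in members in every library, which leaves out high ratios of genes that were low in 1 or more libraries. Ly6c1, a lymphocyte antigen 6 protein on the cell surface, had a median log2 ratio of 3.35 (1.44 to 4.72). Cd55, which shields cells from complement, stood at 3.10 (1.72 to 3.90), and Clec3b, the secreted plasminogen-binding lectin tetranectin, at 2.65 (1.06 to 4.32). Ly6a, the progenitor marker Sca-1, reached 2.55 (1.68 to 3.17). Behind these came Htra3, Emilin2, Adamts5, C3, Pcsk6, Igfbp5 and Cd34, all higher in members in every library.

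At the other end, among genes with at least 50 CPM in the other fibroblasts in every library, stood Fabp5, Tagln and Acta2. Fabp5, a fatty acid carrier, had a median log2 ratio of -1.60 (-2.72 to -0.46). Tagln and Acta2, parts of the contractile apparatus, had -1.38 (-2.68 to -0.43) and -1.32 (-3.42 to -0.00). Lower in members in every library were also Col11a1, the injury matrix protein Tnc, Tpm2, Ecrg4 and Ptn.

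**Figure D1:**
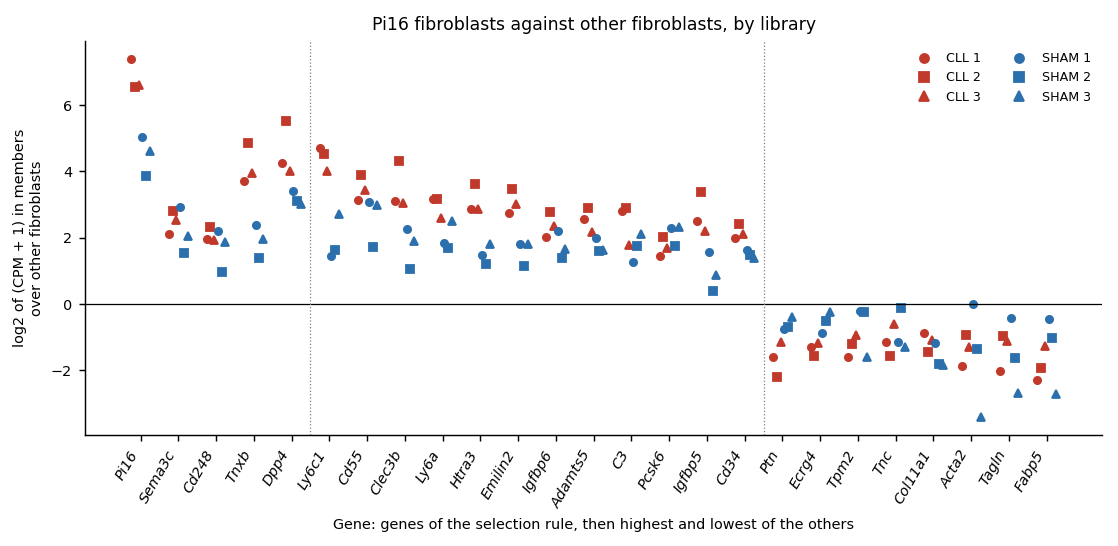
Each point is 1 library (red CLL, blue SHAM, the symbol giving the replicate), and the vertical axis is the log2 ratio of CPM + 1 in Pi16 fibroblasts over other fibroblasts. The 5 genes left of the first dotted line chose the members; the next 12 lie above 0 and the last 8 below 0 in every library, Pi16 reaching 7.40 in CLL replicate 1.

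How many of the fibroblasts were Pi16 fibroblasts in each mouse was asked first. Members made up 7.31%, 3.43% and 4.32% of the fibroblast gate in CLL mice, and 2.49%, 19.5% and 5.995% in SHAM mice. SHAM replicate 2, which had only 308 fibroblasts, stood above all others, and the groups overlapped. The means were 5.02 ± 2.03% and 9.32 ± 8.97% (SD, n = 3 each; two-sided exact permutation p = 0.70, where 3 against 3 cannot go below 0.10). Since a deeper barcode passes the rule more readily, every barcode was also thinned to 2000 UMIs, leaving out shallower ones, which kept 4098 fibroblast barcodes in CLL and 3860 in SHAM. The shares then became 2.65%, 3.02% and 1.12% in CLL and 1.09%, 3.15% and 1.62% in SHAM, with means of 2.26 ± 1.01% and 1.95 ± 1.07% (exact permutation p = 0.90). Thinning is a random draw, and the exact mean over all possible draws gave 2.15 ± 0.96% in CLL and 2.17 ± 1.2% in SHAM (exact permutation p = 1, n = 3 each). A difference in share was not detectable. Beside this, among leukocyte-gate barcodes (Ptprc detected, Pecam1 and Cdh5 at 0, matrix genes under 2% of UMIs), which should lack the pattern, 15 of 8096 met the 5-gene part of the rule (0.185%), and 1.33% in CLL and 2.75% in SHAM had a Pi16 UMI.

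Whether Pi16 fibroblasts carry the endothelial mark was read from the reporter. In 1 random thinning to 2000 UMIs, 5.71%, 3.92% and 10.3% of members in CLL mice and 18.2%, 3.33% and 20% in SHAM mice had a UMI of the reporter, named Tomato (exact permutation p = 0.40, n = 3 each). Few members carry the UMI, so the draw matters: a second thinning gave 5.71%, 2.94% and 7.35% in CLL and 15.5%, 11.7% and 16% in SHAM. The exact mean over all thinnings was 6.24%, 4.04% and 8.98% in CLL and 15.7%, 7.91% and 11.1% in SHAM. Of the SHAM libraries only replicate 2 then overlapped the CLL values. The means were 6.42 ± 2.48% and 11.6 ± 3.90% (exact permutation p = 0.20, where 3 against 3 cannot go below 0.10), and without thinning 33.1% and 45.5%. Other fibroblasts had 9.65%, 8.77% and 9.80% in CLL and 20.8%, 9.80% and 15.2% in SHAM, so CLL was lower in mean in both classes (exact permutation p = 0.10 in the others). The leukocyte gate, which should not carry the mark, had 14.1%, 13.9% and 15.2% in CLL and 16.7%, 14.0% and 12.2% in SHAM, and the endothelial gate a mean of 79.8% and 75.4%. By the exact mean, the share in members lay below that of the leukocyte gate of the same library in each of the 6 libraries. In the 1 random thinning it lay above in SHAM replicate 1 (18.2% against 16.9%) and SHAM replicate 3 (20% against 11.8%), and below in the others. Summed Tomato UMIs without TMM scaling split likewise, at 125 against 101 CPM and 107 against 63.0 CPM in those SHAM libraries. By the exact mean the share is read as background, but whether a few members carry the mark was not tested. All barcodes have equal depth after thinning; before it, the leukocyte medians were 3151.5 to 18689.5 UMIs. Summed counts gave a log2 difference of -1.42 ± 0.38 for Tomato in members (edgeR adjusted p = 0.0502), just short of the threshold.

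**Figure D2:**
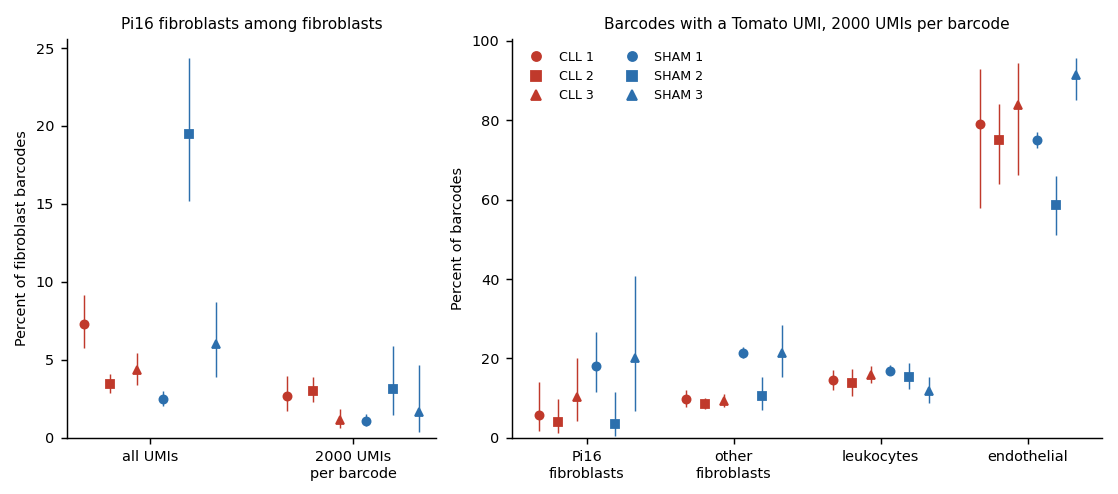
Percentages by library with exact binomial 95% intervals, which cover counting error only: left, Pi16 fibroblasts among fibroblast barcodes with all UMIs and after thinning; right, barcodes with a Tomato UMI by class after 1 random thinning. SHAM replicate 2 stands at 19.5% on the left before thinning and at 3.15% after it, and endothelial barcodes stand far above the other classes on the right.

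Which genes of the Pi16 fibroblasts differed between CLL and SHAM was tested on UMIs summed per library, with edgeR's quasi-likelihood test. Of 8747 genes tested, 243 were higher in CLL (2.78%) and 240 lower (2.74%) at a Benjamini-Hochberg adjusted p under 0.05, 5.52% in all. With DESeq2 the counts were 208 and 198. Without SHAM replicate 3, the library with almost no mitochondrial UMIs, they were 159 and 192, and without the shallow SHAM replicate 1 they were 292 and 283. Dropping CLL replicate 1 gave 105 and 84, dropping CLL replicate 2 gave 132 and 83, dropping CLL replicate 3 gave 218 and 157, and dropping SHAM replicate 2 gave 127 and 128. No gene called in the full set was called in the opposite direction in any of these. The median log2 difference over all genes was -0.01. Of the 483 called genes, 374 were also called in the same direction in the other fibroblasts of the same mice and 0 in the opposite direction. Those gave calls for 7.94% (higher) and 8.52% (lower) of 13859 genes.

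Among the genes named for the size of their rise, Ccn5, Nr4a3 and Slc16a3, the last described with glycolysis below, rose most. Ccn5, a matricellular protein of the CCN family, was at 71.4, 126 and 56.6 CPM in CLL and 4.30, 6.63 and 1.21 CPM in SHAM. Every CLL library lay far above every SHAM library, a log2 difference of 4.22 ± 0.45 (SE; edgeR adjusted p = 0.000356). Nr4a3, an orphan nuclear receptor, was at 63.4, 64.3 and 34.3 CPM in CLL and 8.6, 3.68 and 2.42 CPM in SHAM (3.55 ± 0.41, edgeR adjusted p = 0.000520). Genes of this pick had to show no overlap between groups, which 11.8% of tested genes did in each direction. The SHAM member sums held 656634, 1438757 and 836156 UMIs over tested genes, so values of a few CPM rest on few UMIs. The size of the folds of Ccn5 and Nr4a3 is therefore uncertain. Serpina3n, a secreted inhibitor of serine proteases, rose by 3.01 ± 0.47 and Rgs4, a brake on G-protein signals, by 2.78 ± 0.42. Rgs4 was not called with members limited to at least 4 of the 5 rule genes. Nor was Rgs4 called with members whose 5 rule genes hold at least 0.05% of UMIs. Aldh1a3, which makes retinoic acid, rose by 2.45 ± 0.38. Mgll, a lipase, rose by 2.36 ± 0.52, but was called in only 2 of the 6 fits that left out a library. The call was lost without CLL replicate 1, CLL replicate 2, SHAM replicate 2 or SHAM replicate 3. Its edgeR or DESeq2 adjusted p ran from 8.43e-12 to 0.0921 over all alternatives.

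**Figure D3:**
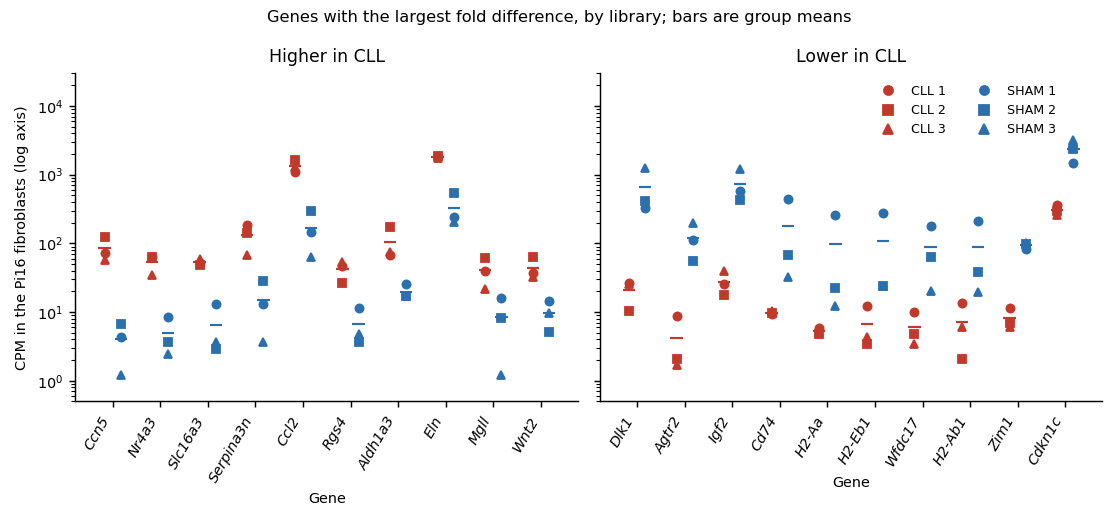
CPM in Pi16 fibroblasts on a log axis, 1 point per library (red CLL, blue SHAM) with a bar at each group's mean. Shown are 10 genes per direction, those of largest difference among called genes with at least 20 CPM and no overlap between groups. Genes of the rule and of other cells, among others, were left out. The lack of overlap was thus chosen, and 11.8% of the 8747 tested genes had it in each direction. Dlk1 lies at 10.4 to 26.7 CPM in CLL and 325 to 1269 CPM in SHAM, and the class II genes have 1 high SHAM library, replicate 1.

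Among the genes named for the size of their fall, also picked to have no overlap between groups, Dlk1, Agtr2 and Igf2 fell most. Dlk1, a Notch-family ligand that holds back adipocyte formation, was at 26.7, 10.4 and 25.7 CPM in CLL and 325, 416 and 1269 CPM in SHAM. SHAM replicate 3 was highest, and the lowest SHAM library was still above 10 times the highest CLL library. The log2 difference was -5.01 ± 0.53 (edgeR adjusted p = 0.000356). Igf2, the fetal insulin-like growth factor, was at 25.9, 18.0 and 39.5 CPM in CLL and 583, 432 and 1211 CPM in SHAM, a log2 difference of -4.75 ± 0.41 (edgeR adjusted p = 0.000109). Cdkn1c, an inhibitor of the cell cycle, was at 367, 297 and 261 CPM in CLL and 1472, 2368 and 3207 CPM in SHAM. The groups stood well apart, with a log2 difference of -2.93 ± 0.27. Zim1, a zinc finger gene, had a log2 difference of -3.51 and Mest, a hydrolase-like gene, of -2.16. Agtr2, the type 2 angiotensin receptor, was at 8.65, 2.07 and 1.72 CPM in CLL and 112, 55.3 and 196 CPM in SHAM, with a log2 difference of -4.77 ± 0.56. Its lowest CLL values rest on few UMIs, so the size of this fold is uncertain too. Of 17 cell cycle genes tested, 0 passed in edgeR, 0 in DESeq2 and 0 had an unadjusted p under 0.05. The rule admitted only barcodes with at most 2 of 4 cell cycle genes. This list therefore cannot tell whether cycling differed between the groups.

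Some of the genes that mark Pi16 fibroblasts rose, and the others did not pass the test. Of 33 tested genes of the adventitial progenitor list, 9 were higher in CLL and 0 lower (2.78% and 2.74% of all genes), with a median log2 difference of 1.03 against -0.01 over all genes. The 9 were Anxa3, Aldh1a3, Wnt2, Uchl1, Gfpt2, Cadm3, Pcolce2, Gap43 and Ackr3. Anxa3, a membrane-binding annexin, was at 309.9, 471 and 245 CPM in CLL and 107, 73.7 and 110.2 CPM in SHAM, without overlap (1.83 ± 0.25, edgeR adjusted p = 0.00172). Wnt2, a Wnt ligand, was at 36.8, 62.9 and 32.6 CPM in CLL and 14.3, 5.16 and 9.68 CPM in SHAM (2.31 ± 0.38, edgeR adjusted p = 0.00484). Uchl1, a deubiquitinase, was at 31.0, 40.1 and 28.3 CPM and 2.87, 11.8 and 8.47 CPM. These low genes lay clearly apart in the 2 groups.

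Other markers of the cells did not pass. Clec3b was at 804, 1306 and 583 CPM in CLL and 937, 867 and 971 CPM in SHAM, a log2 difference of -0.04 ± 0.25. CLL replicate 2 was highest and CLL replicate 3 lowest, so the groups overlapped. Igfbp6 (-0.18 ± 0.18), Cd55 (0.33 ± 0.26), Cd34 (0.05 ± 0.20), Il33 (0.16 ± 0.24) and Efemp1 (0.80 ± 0.44) also overlapped between groups. Ly6a had 0.60 ± 0.24 (edgeR adjusted p = 0.193) and Ly6c1 1.15 ± 0.32 (edgeR adjusted p = 0.0604).

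These values touch the choice of members. Pi16 itself was at 557, 1196 and 367 CPM in CLL and 358, 259 and 154 CPM in SHAM, and the 5 genes of the rule summed to 1385 to 3048 CPM in CLL and 963 to 1475 CPM in SHAM, so CLL members met the rule more strongly on average. Of the 5 rule genes 4 had a positive log2 difference, with a median of 0.93 over the 5. Cd248 was called higher in CLL, but these genes chose the members and are given as a description. The 1 negative difference was that of Tnxb, at -0.22 ± 0.31. With members limited to at least 4 of the 5 genes, 15 adventitial genes were higher and 0 lower. With members limited to those whose 5 genes hold at least 0.05% of UMIs, and SHAM replicate 3 left out for its 15 such members, 6 were higher and 0 lower. Thinned to 2000 UMIs, 2 were higher. The number was 4 when CLL replicate 1 or SHAM replicate 3 was dropped, 5 for CLL replicate 2 or SHAM replicate 2, 9 for SHAM replicate 1 and 18 for CLL replicate 3. The part that depth and the strength of the rule's genes play in these counts was not tested.

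The lists of 2 neighbouring fibroblast states each had calls in 1 direction, lower in CLL for the first and higher for the second. The list of interstitial fibro-adipogenic progenitors had 0 of 20 tested genes higher and 12 lower in CLL, with a median log2 difference of -1.13. Smoc2, a secreted calcium-binding matrix protein, was at 241, 268 and 235 CPM in CLL and 460.1, 833 and 539.9 CPM in SHAM, without overlap (-1.30 ± 0.21, edgeR adjusted p = 0.00459). Mme, the surface peptidase neprilysin, was at 12.3, 15.9 and 14.6 CPM in CLL and 58.8, 47.2 and 53.3 CPM in SHAM (-1.87 ± 0.22, edgeR adjusted p = 0.000626). Col6a6, a collagen VI chain, had -2.08 ± 0.30, and Spry1, a brake on growth factor signalling, -1.84 ± 0.27. The other 8 that fell were Apod, Col4a2, Col4a1, Hmcn2, Ltbp4, Ptn, Lpl and Col15a1. Between 6 genes (without CLL replicate 2 or SHAM replicate 2) and 13 genes (without SHAM replicate 1) fell when a library was left out. It was 7 without CLL replicate 1.

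The activated fibroblast list, genes that rise in fibroblasts after injury, had 13 of 26 tested genes higher and 0 lower, with a median log2 difference of 0.85. Lox, the enzyme that cross-links collagen and elastin, was at 1316, 1185 and 1289 CPM in CLL and 337, 348 and 375 CPM in SHAM. Within each group the 3 libraries lay close together, and the log2 difference was 1.84 ± 0.16 (edgeR adjusted p = 0.000109). Timp1, an inhibitor of matrix metalloproteinases, was at 786, 478 and 715 CPM in CLL and 173, 229 and 148 CPM in SHAM (1.84 ± 0.23, edgeR adjusted p = 0.000786). Ddah1, which breaks down an inhibitor of nitric oxide synthesis, had 1.75 ± 0.19. Cthrc1, Col8a1, Col12a1, Thbs2, Runx1, Lrrc17, Tnc, Lrrc15, Tagln and Fn1 also rose. In fits that left out a library the number was 8 (CLL replicate 1, CLL replicate 3 or SHAM replicate 2) to 14 (SHAM replicate 1), and 7 under each of the 2 stricter rules for members.

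**Figure D4:**
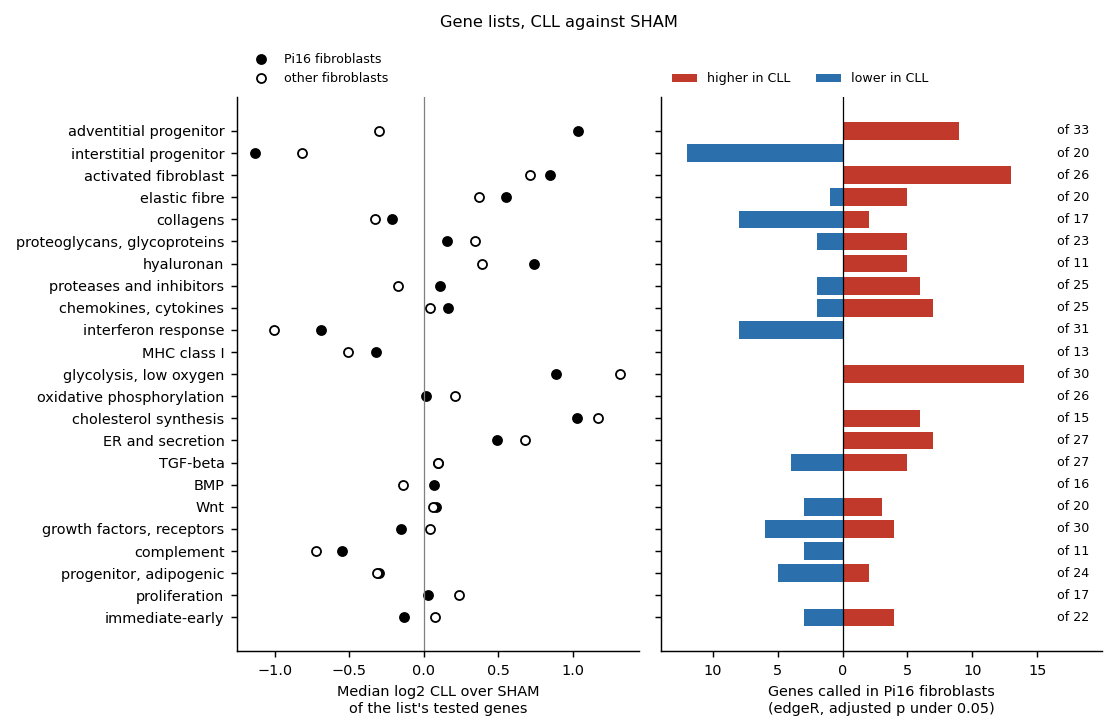
Left, the median log2 difference of each gene list's tested genes in Pi16 fibroblasts (filled) and other fibroblasts (open); right, how many genes were called higher (red) or lower (blue) in Pi16 fibroblasts, of the number tested at the right edge. The adventitial list stands at 1.03 in Pi16 fibroblasts and -0.30 in the others, the widest gap between the 2 classes among the lists shown.

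In the matrix, 6 of 20 elastic fibre genes and 10 of 17 collagen genes passed the test. Of the elastic fibre genes, Eln, Ltbp2, Fbln2, Fbn1 and Mfap5 were higher in CLL and Ltbp4 lower. Eln, which encodes elastin itself, was at 1844, 1859 and 1722 CPM in CLL and 244, 539 and 205 CPM in SHAM. The CLL libraries were nearly level, and the highest SHAM library, replicate 2, reached less than 1 part in 3 of them. The log2 difference was 2.45 ± 0.31 (edgeR adjusted p = 0.000884). Ltbp2, which binds microfibrils, was at 185, 151 and 198 CPM in CLL and 38.7, 39.1 and 46.0 CPM in SHAM (2.11 ± 0.18, edgeR adjusted p = 0.000109). Fbn1, fibrillin-1 of the microfibril scaffold, had 0.93 ± 0.17. The call of Mfap5 (0.82 ± 0.19) was lost without CLL replicate 2, CLL replicate 3 or SHAM replicate 3. Its edgeR or DESeq2 adjusted p ran from 0.000215 to 0.135 over all alternatives.

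Of 17 collagen genes 2 were higher and 8 lower. Col12a1, which decorates collagen fibrils under load, rose from 325, 248 and 278 CPM in SHAM to 624, 621 and 769 CPM in CLL (1.24 ± 0.17, edgeR adjusted p = 0.00172), and Col8a1 by 1.83 ± 0.24. Col18a1, a basement membrane collagen, was at 30.3, 29.0 and 36.0 CPM in CLL and 98.9, 102 and 137 CPM in SHAM (-1.82 ± 0.20, edgeR adjusted p = 0.000358). With it fell Col4a1, Col4a2 and Col15a1 of the basement membrane, and Col5a3, Col6a1, Col6a2 and Col6a3. The fibrillar chains Col1a1, Col1a2 and Col3a1, which chose the fibroblasts, had log2 differences of -0.21, 0.03 and -0.08. The number that fell was 1 when CLL replicate 2 was dropped, 2 for CLL replicate 3 or SHAM replicate 2, 3 for CLL replicate 1, 4 for SHAM replicate 3 and 8 for SHAM replicate 1. Col18a1 was called in every fit.

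Among 23 proteoglycans and glycoproteins 5 rose and 2 fell, and 1 of the falls was Lum, a gene of the fibroblast gate. Lum, a collagen-binding proteoglycan, is given as a description because it helped to choose the fibroblasts. It was at 654, 541 and 693 CPM in CLL and 1453, 1791 and 1576 CPM in SHAM (-1.35 ± 0.17). Sparcl1, a matricellular protein, was at 95.1, 50.5 and 114 CPM and 278, 319 and 276 CPM, also lower in every CLL library (-1.76 ± 0.25). Thbs2, a thrombospondin that limits vessel growth, rose by 1.21 ± 0.18, and Thbs1, Tnc, Fn1 and Fmod rose with it.

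The enzymes that build hyaluronan, a large matrix sugar, were higher in CLL in 5 of 11 tested genes and lower in 0. Uap1, which makes a sugar precursor, was at 181, 290.3 and 168 CPM in CLL and 83.1, 66.3 and 71.4 CPM in SHAM (1.55 ± 0.23, edgeR adjusted p = 0.00235). Has1, a hyaluronan synthase, was at 420.2, 415 and 236 CPM and 188, 212 and 100.5 CPM, the lowest CLL library only just above the highest SHAM library (1.09 ± 0.28, edgeR adjusted p = 0.0424). Ugdh, Gfpt2 and Ugp2 also supply precursors. Without CLL replicate 2 only Uap1 of the 5 was called, without CLL replicate 1 or SHAM replicate 3 the list had 2 calls, and after thinning 1. Ugdh, Gfpt2 and Has1 lost their call without CLL replicate 1, CLL replicate 2 or SHAM replicate 3. The edgeR or DESeq2 adjusted p for Has1 ran from 3.18e-07 to 0.20 over all alternatives.

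Proteases and their inhibitors gave 6 rises and 2 falls in 25 genes. Serpine2, a protease inhibitor, rose by 1.11 ± 0.16. Adamts4, a protease that cuts aggrecan, fell (-1.31 ± 0.19). Timp3, Pcolce2 and Adamts5 rose and Mmp2 fell. With members whose 5 genes hold at least 0.05% of UMIs, only Timp1 was called, and 3 were called without CLL replicate 1.

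Of 25 chemokine and cytokine genes 7 were higher and 2 lower. Ccl2, the main attractant of monocytes, was at 1096, 1615 and 1289 CPM in CLL and 148, 293 and 62.9 CPM in SHAM. Every CLL library lay far above every SHAM library, a log2 difference of 2.97 ± 0.41 (edgeR adjusted p = 0.00172). Ccl7, a related attractant, was at 717, 682 and 414 CPM in CLL and 142, 299 and 136 CPM in SHAM (1.63 ± 0.30, edgeR adjusted p = 0.00931). Among the 6 libraries this call was lost only without CLL replicate 1. The edgeR or DESeq2 adjusted p of Ccl7 ran from 2.95e-15 to 0.0585 over all alternatives. Csf1, the growth factor of macrophages, was at 161, 195 and 95.2 CPM and 64.5, 85.5 and 76.3 CPM. Its call (0.99 ± 0.24, edgeR adjusted p = 0.0370) held in only 1 of 6 fits that left out a library, the one without CLL replicate 3. Nfkbia, the feedback inhibitor of NF-kB, rose by 0.98 ± 0.15, and Ccl19, Cxcl1 and Ptgs2 rose too. Cxcl12, the chemokine that holds progenitors in their niche, was at 148, 116 and 146 CPM in CLL and 267, 264 and 225 CPM in SHAM, lower in every CLL library (-0.88 ± 0.16, edgeR adjusted p = 0.00966). The Cxcl12 call was lost without CLL replicate 2 and after thinning to 2000 UMIs. Cxcl9 fell as well. Il6 and Ccl11 did not pass, at 0.96 ± 0.46 and -1.03 ± 0.40.

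Interferon response genes were lower in CLL in 8 of 31 tested genes and higher in 0, with a median log2 difference of -0.69. Iigp1, an immunity GTPase, was at 29.6, 25.6 and 29.2 CPM in CLL and 77.4, 89.2 and 105 CPM in SHAM. The groups did not overlap (-1.69 ± 0.19, edgeR adjusted p = 0.000482). Gbp3, a guanylate-binding protein, had -1.54 ± 0.23, and Gbp2, Gbp7, Rtp4, Oasl2, Xaf1 and Bst2 fell too. Without the members rich in macrophage RNA the count was again 8. It was 2 when CLL replicate 1, CLL replicate 2 or SHAM replicate 2 was dropped, 4 for SHAM replicate 3, 6 for CLL replicate 3 and 8 for SHAM replicate 1. Of 13 MHC class I genes 0 passed in edgeR, 0 in DESeq2 and 3 had an unadjusted p under 0.05, though 12 had a negative log2 difference.

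The MHC class II genes need the macrophage values beside them. Cd74, the class II invariant chain, was at 9.37, 9.68 and 10.3 CPM in CLL and 444, 68.5 and 32.7 CPM in SHAM, and H2-Aa at 5.77, 4.84 and 5.15 CPM and 257, 22.1 and 12.1 CPM. SHAM replicate 1 was highest for both and for H2-Ab1, H2-Eb1 and Wfdc17, a small secreted protein of macrophages. Their log2 differences were -4.16 ± 0.84, -4.08 ± 1.03, -3.54 ± 0.83, -3.88 ± 0.95 and -3.75 ± 0.68. Of 8 tested macrophage markers 7 fell too, among them C1qa (-3.86 ± 0.74), C1qb (-3.39 ± 0.67), Tyrobp (-3.70 ± 0.74) and Fcer1g (-3.88 ± 0.77). Without the 30 members with at least 0.2% macrophage UMIs, 0 of the macrophage markers passed, and Wfdc17, H2-Ab1 and H2-Eb1 were no longer called. The log2 difference of Cd74 was then -1.99 (edgeR adjusted p = 0.0110) and that of H2-Aa -1.68. Over all alternatives the edgeR or DESeq2 adjusted p of Cd74 ran from 2.44e-54 to 0.0836. H2-Aa, H2-Ab1 and H2-Eb1 lost their call without any 1 of the 3 CLL libraries, Cd74 without CLL replicate 1 or CLL replicate 2, and Wfdc17 without CLL replicate 2. Macrophage markers gave 0 calls in edgeR without CLL replicate 1, and also without the members marked as doublets, which number 22 in SHAM replicate 1.

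Of 30 tested genes of glycolysis and the response to low oxygen, 14 were higher in CLL and 0 lower, with a median log2 difference of 0.89. Pgk1, which makes ATP in glycolysis, was at 261, 279.9 and 281 CPM in CLL and 100.3, 80.3 and 77.5 CPM in SHAM. The spread within a group was small, and the log2 difference was 1.68 ± 0.16 (edgeR adjusted p = 0.000225). Ldha, lactate dehydrogenase, was at 488, 486 and 459 CPM in CLL and 169, 199 and 168 CPM in SHAM (1.41 ± 0.15, edgeR adjusted p = 0.000389). Slc16a3, which exports lactate, was at 52.6, 47.7 and 59.2 CPM and 12.9, 2.95 and 3.63 CPM, the largest difference of the list (3.20 ± 0.38, edgeR adjusted p = 0.000609). Higd1a, a mitochondrial protein induced by low oxygen, had 1.86 ± 0.19, and Pkm, pyruvate kinase, 1.47 ± 0.17. Eno1, Tpi1, Pgam1, Bnip3, Gapdh, Pfkl, Aldoa, Ndrg1 and Egln1 rose as well. Between 10 (without CLL replicate 1) and 14 (without CLL replicate 3) of the list were called when a library was left out, and 5 after thinning to 2000 UMIs. Of 26 genes of oxidative phosphorylation 0 passed in edgeR, 0 in DESeq2 and 2 had an unadjusted p under 0.05, with a median of 0.02.

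For the genes of this list, the 250 bases before their annotated starts were read from RefSeq (build GRCm38.p6) for ACGTG, the core of the element that hypoxia-inducible factors bind, on both strands (ACGTG or CACGT). The promoters of Pgk1, Ldha and Slc16a3, whose values are given above, are shown with the matches in capitals, 5′ to 3′ on the gene's strand.
Pgk1, chrX:106186850-106187099, plus strand: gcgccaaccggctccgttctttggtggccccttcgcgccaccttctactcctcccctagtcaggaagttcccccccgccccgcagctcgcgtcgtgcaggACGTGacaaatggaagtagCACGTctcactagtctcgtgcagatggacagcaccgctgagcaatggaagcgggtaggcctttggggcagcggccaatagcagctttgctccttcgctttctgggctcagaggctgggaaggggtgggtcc
Ldha, first annotated start, chr7:46845554-46845803, plus strand: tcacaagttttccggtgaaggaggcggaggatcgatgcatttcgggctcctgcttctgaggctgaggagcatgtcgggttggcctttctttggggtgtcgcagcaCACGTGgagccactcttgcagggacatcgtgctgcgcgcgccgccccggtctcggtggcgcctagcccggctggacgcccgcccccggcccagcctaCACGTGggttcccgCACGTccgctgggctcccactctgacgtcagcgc
Slc16a3, chr11:120948817-120949066, plus strand: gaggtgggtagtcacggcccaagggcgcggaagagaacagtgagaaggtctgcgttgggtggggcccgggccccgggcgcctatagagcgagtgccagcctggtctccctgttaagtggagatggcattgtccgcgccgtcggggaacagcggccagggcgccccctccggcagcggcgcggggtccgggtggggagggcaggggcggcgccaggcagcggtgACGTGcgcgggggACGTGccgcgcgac
Matches stood at 2 places before Pgk1, 3 before the first start of Ldha and 2 before Slc16a3. The second annotated start of Ldha had 0. Higd1a, whose difference is also given above, had 0, as had Eno1, Tpi1, Gapdh and Pfkl. Their promoters are not shown, so the 3 shown do not stand for the list. Of the 14 genes that rose, 13 had an entry and 8 of those held a match before at least 1 start, 61.5%. The share was 64.3% of 14 genes of the list that did not pass, 29.3% of all genes higher in CLL, 26.5% of the genes tested and 18.5% of all genes with an entry. These shares were not tested against each other. A match is a string of letters, not a site shown to be bound.

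Cholesterol synthesis was higher in CLL in 6 of 15 genes and lower in 0, with a median log2 difference of 1.03. Idi1, an isomerase of the pathway, was at 30.3, 23.5 and 25.7 CPM in CLL and 7.17, 2.21 and 2.42 CPM in SHAM (2.88 ± 0.40, edgeR adjusted p = 0.00175). Cyp51, which removes a methyl group from lanosterol, was at 48.3, 46.3 and 51.5 CPM and 21.5, 9.58 and 7.26 CPM (2.00 ± 0.31, edgeR adjusted p = 0.00317). Fdps, Hmgcs1 and Mvd were among the others that rose. The count was 4 without any of 5 libraries in turn and 9 without SHAM replicate 1, but 1 with the stricter 0.05% rule and 0 after thinning, where few counts remain for these low genes. Among 27 genes of the endoplasmic reticulum and secretion 7 rose and 0 fell. Hspa5, the chaperone BiP, was at 1169, 1572 and 1331 CPM in CLL and 632, 744 and 591 CPM in SHAM, without overlap (1.05 ± 0.17, edgeR adjusted p = 0.00486). Plod2, Pdia4, Creld2, Hsp90b1, Serpinh1 and Pdia6 made up the rest.

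Among signalling genes the changes went both ways. Of 27 TGF-beta genes 5 rose and 4 fell. Ccn2, a connective tissue growth factor, was at 444, 478 and 475 CPM in CLL and 140.5, 129.7 and 119 CPM in SHAM, nearly level within each group (1.85 ± 0.16, edgeR adjusted p = 0.000109). Smad7, which inhibits the receptors, was at 141, 137 and 121 CPM and 38.7, 37.6 and 37.5 CPM (1.81 ± 0.17, edgeR adjusted p = 0.000158). Nrep, a small protein found in regenerating tissue, fell (-1.57 ± 0.22). The receptor gene Tgfbr2 had 0.29 ± 0.16 and did not pass. Of 16 BMP genes 0 passed in edgeR, 1 in DESeq2 and 6 had an unadjusted p under 0.05.

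In the Wnt list 3 of 20 genes rose and 3 fell. The rises were the ligand Wnt2 and the CCN proteins Ccn5 and Ccn4, and the falls the transcription factors Tcf4 (-1.18 ± 0.18) and Tcf7l2 (-0.86 ± 0.16) and the ligand Wnt5a. Tcf7l2 was not called without CLL replicate 1, CLL replicate 2 or SHAM replicate 2 (edgeR or DESeq2 adjusted p from 0.00205 to 0.0685 over all alternatives).

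Of 30 growth factors and receptors 4 rose and 6 fell. Vegfd, a growth factor for lymphatic vessels, was at 161, 124 and 74.6 CPM in CLL and 31.5, 30.2 and 27.8 CPM in SHAM, every CLL library above every SHAM library (2.01 ± 0.27, edgeR adjusted p = 0.00161). Hbegf, a ligand of the EGF receptor, rose by 1.78 ± 0.25, and Nrg1 rose too. Besides Igf2, the falls were Angptl2 (-1.16 ± 0.16), Mdk, Angptl1, Ptn and Pdgfra, the receptor that marks muscle fibroblasts. Angptl2 was not called after thinning to 2000 UMIs (edgeR adjusted p = 0.247). Pdgfra (-0.97 ± 0.22) lost its call without CLL replicate 2, CLL replicate 3, SHAM replicate 2 or SHAM replicate 3, and Ptn (-1.36 ± 0.32) without CLL replicate 1, CLL replicate 2, SHAM replicate 2 or SHAM replicate 3. Igf1 had -0.54 ± 0.19 and did not pass. In the progenitor and adipogenic list, 5 of 24 fell, Dlk1, Meox2 (-1.64 ± 0.24), Ebf1, Plin2 and Lpl, and Twist1 and Mfap5 rose. Ebf1 lost its call without any 1 of the CLL libraries, after thinning and with the 0.05% minimum. Twist1 lost its call without CLL replicate 1, CLL replicate 2 or SHAM replicate 2, after thinning and with either stricter rule for members. Its edgeR or DESeq2 adjusted p ran from 0.00255 to 0.570 over all alternatives.

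Immediate-early and heat shock genes, which also respond to tissue dissociation, were split. Of 22 genes Hspb1, Nr4a1, Ier3 and Dnajb1 were higher in CLL and Socs3, Fos and Zfp36 lower. Hspb1, a small heat shock protein, was at 257, 388 and 318 CPM in CLL and 130.4, 69.3 and 70.2 CPM in SHAM (1.86 ± 0.25, edgeR adjusted p = 0.00161). Socs3, a feedback inhibitor of cytokine signals, was at 218, 164 and 206 CPM and 369.8, 648 and 878 CPM (-1.69 ± 0.27, edgeR adjusted p = 0.00354). Both sets of libraries stood apart, in opposite directions. Fos had -0.72 ± 0.16, a call that held only without SHAM replicate 1 when a library was left out, and Nr4a1 1.12 ± 0.25, lost without CLL replicate 1, SHAM replicate 2 or SHAM replicate 3. The part of dissociation in these, and in Nr4a3 above, which is not on this list, was not tested.

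Whether the Pi16 fibroblasts differed from other fibroblasts in how CLL and SHAM differ was tested directly, as an interaction of class and treatment in edgeR, blocked by library. Of 11084 genes, 64 had a higher response in members (0.577%) and 13 a lower one (0.117%). Thinned to 2000 UMIs the counts were 17 and 5. Dropping a library gave 24 and 7 (CLL replicate 2), 27 and 8 (SHAM replicate 1), 42 and 14 (SHAM replicate 3) and 127 and 20 (CLL replicate 3). In all of these fits 0 genes were called in the opposite direction.

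Of 33 tested genes of the adventitial list, 13 had a higher response in members and 0 a lower one: Ly6c1, Ly6a, Cd34, Clec3b, Procr, Cadm3, Thbd, Limch1, Emilin2, Smpd3, Aldh1a3, Scara5 and Ccl11. Ly6c1 was at 408, 565 and 208 CPM in CLL members and 176, 123 and 236 CPM in SHAM members, and in the other fibroblasts at 14.5, 23.8 and 12.1 CPM in CLL and 64.4, 39.4 and 35.3 CPM in SHAM. In the members the groups overlapped, and in the others every CLL library was lower. The difference between the 2 log2 differences was 2.67 ± 0.25 (edgeR adjusted p = 3.41e-05). Clec3b was lower in CLL in the others, at 92.2, 64.5 and 69.5 CPM against 196, 414 and 257 CPM, while its log2 difference in members was -0.04, a gap of 1.85 ± 0.30 (edgeR adjusted p = 0.00503). Ly6a, with a gap of 1.06 ± 0.19, lost the call without CLL replicate 1, CLL replicate 2 or SHAM replicate 1, and Cd34, with 0.76 ± 0.14, without CLL replicate 2 or SHAM replicate 3 and after thinning. Of the 13, Ly6c1, Clec3b, Thbd and Emilin2 were called under every alternative run, and Scara5 in every one but thinning.

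In the members 9 of these list genes were higher, and in the other fibroblasts 4 of 35 were higher and 9 lower, with medians of 1.03 and -0.30. The members are chosen for genes that go along with this list and the others for lacking them, and the part of that choice in the gap was not tested. The rule genes, given as a description because they chose the members, had gaps of 2.44 ± 0.31 for Pi16 and 2.45 ± 0.26 for Tnxb. With members whose 5 genes hold at least 0.05% of UMIs, SHAM replicate 3 left out, the count was 14. It was 5 after thinning or without CLL replicate 2, 7 without SHAM replicate 1 and 20 without CLL replicate 3.

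**Figure D5:**
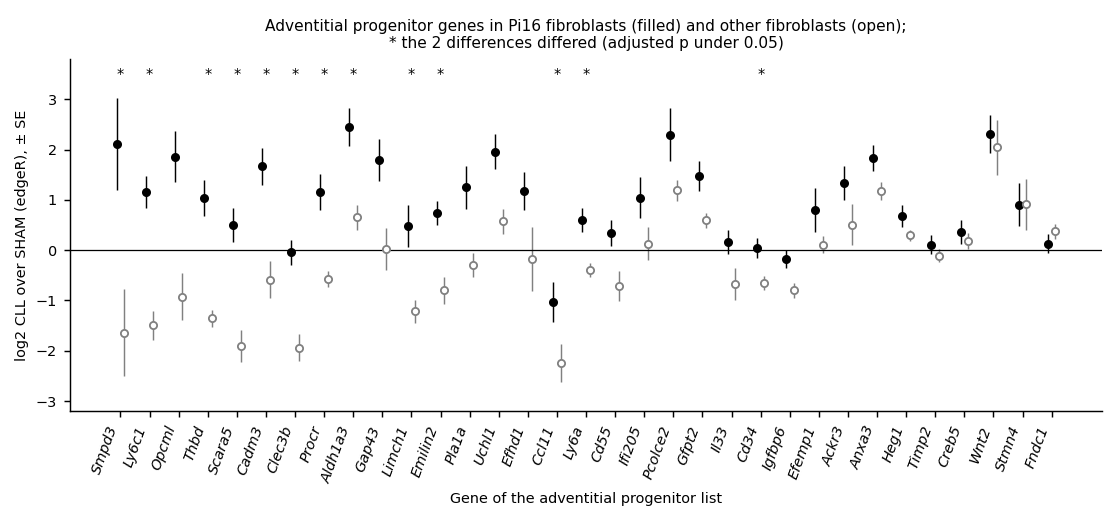
Log2 difference between CLL and SHAM with its standard error for the 33 adventitial progenitor genes tested in both classes, filled for Pi16 fibroblasts and open for other fibroblasts, ordered by the size of the gap. An asterisk marks the 13 genes whose 2 differences differed in the interaction test; for Ly6c1 the 2 values are 1.15 and -1.50.

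Outside that list, elastin rose more in members. Eln differed between CLL and SHAM by 2.45 ± 0.31 in members and 1.03 ± 0.26 in others, a gap of 1.55 ± 0.13 (edgeR adjusted p = 1.59e-05). Nr4a3 differed by 3.55 ± 0.41 in members and 0.46 ± 0.29 in others, a gap of 2.99 ± 0.36 (edgeR adjusted p = 0.000407), a call lost after thinning to 2000 UMIs (edgeR adjusted p = 0.388). Prg4, the joint lubricant lubricin, was at 342, 139 and 123 CPM in CLL members and 61.6, 105 and 9.68 CPM in SHAM members, with a gap of 2.55 ± 0.43 (edgeR adjusted p = 0.00709). Mest fell more in members, from 999, 1123 and 1402 CPM in SHAM to 273, 131 and 388 CPM in CLL, with a gap of -1.60 ± 0.17 (edgeR adjusted p = 0.000116). Mme and Itm2a, a membrane protein, likewise had gaps of -1.43 ± 0.23 and -0.97 ± 0.13, of which that of Mme was not called after thinning (edgeR adjusted p = 0.789). Among genes whose gap did not pass the threshold, Pgk1 had -0.36 ± 0.18, Cyp51 -0.16 ± 0.27, Ccl2 0.86 ± 0.36 and Lox 0.32 ± 0.14.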

How the data were processed

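The deposited values are raw counts, UMIs per gene and barcode for 6 libraries of the Chromium 3' kit v3.1. Per the submitters' processing notes, the authors used Cell Ranger 6.1.2 and build mm10; the sources used here do not say how barcodes were selected. Libraries held 23873416 to 94841003 UMIs.

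Analyses ran in R 4.3.3 and in Python 3.11.15 with scanpy 1.11.5, pandas 2.3.3, scipy 1.17.1, matplotlib 3.10.9 and numpy 2.4.6. The 32286 features include the reporter; where a symbol had several features, the one with most UMIs kept it. Doublets were marked with Scrublet per library at 0.8% per 1000 barcodes deposited (1.67% to 20.0%) and kept, since the rule does not remove them; leaving out the 26 marked members is an alternative. Counts were summed per library over members, and over the other 11271 fibroblast-gate barcodes, and tested with edgeR 4.0.16 (limma 3.58.1; TMM, filterByExpr, quasi-likelihood, group only, Benjamini-Hochberg at 0.05), a script tested on simulated data. The interaction adds the library as a block. Log2 differences are CLL over SHAM with SE. Shares were compared by two-sided exact permutation; intervals are exact binomial (95%, counting error only). Alternatives were DESeq2 1.42.0 and its size factors, no filter, the replicate block, stricter members, doublets, other cells' RNA, thinning and each library left out; those on macrophage RNA, the 0.05% minimum and the exact mean over all thinnings were chosen after seeing the data.

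The members, gene lists and tests were chosen with earlier results of these data known. Named genes are the rule's and marker genes; up to 10 per direction with the largest difference among called genes without overlap and at least 20 CPM, leaving out rule, other-cell, ribosomal, mitochondrial and unnamed genes; up to 4 genes with the smallest p of each list described; a fixed set of 20; 12 and 8 with the most extreme ratio to other fibroblasts at 50 CPM or more; 6 per direction for the interaction; and the reporter. Genes of a list that passed are also named without values, and some counted in the lists are not reported here by name.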

Additional observations from a re-analysis of the deposited data

Results flagged for a closer look

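The difference itself was tested as an edgeR interaction between class and treatment with the library as a block. Of 11084 genes 77 passed (0.695%), and 24 of these are named here. Many of the 24 were named because they passed, so their number is not itself a result. Genes of the rule are left out, since they chose the members. Genes of the adventitial list go along with the rule genes, and the part of that choice in their gaps was not tested. The gap is the log2 difference between CLL and SHAM in members minus that in the others, so a positive gap means a higher response in members. Among the genes of largest gap it was 4.14 for Smpd3, a sphingomyelinase, 2.99 for Nr4a3, 2.95 for Mgll, 2.79 for Gda, a guanine deaminase, 2.67 for Ly6c1 and 2.55 for Prg4. Smpd3 was at 64.9, 179 and 0.858 CPM in CLL members and 5.73, 15.5 and 36.3 CPM in SHAM members, so CLL replicate 3 lay below all SHAM libraries although the other CLL libraries lay above them. Smpd3 was no longer called without CLL replicate 2 or after thinning to 2000 UMIs, Nr4a3 was not called after thinning, Mgll was not called without SHAM replicate 1, and Gda was called only without CLL replicate 3 or SHAM replicate 3 among the 6 fits that left out a library. Further genes of the adventitial list gave 2.41 for Thbd, 2.37 for Scara5, 2.30 for Cadm3, 1.85 for Clec3b, 1.74 for Procr, 1.71 for Aldh1a3, 1.68 for Limch1, 1.64 for Emilin2, 1.31 for Ccl11, 1.06 for Ly6a and 0.76 for Cd34, and Eln gave 1.55. When a library was left out, Procr, Aldh1a3 and Ccl11 were each called in 2 of the 6 fits, Limch1 in 1 and Cadm3 in 4.

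On the negative side stood Mest with -1.60, Mme with -1.43, Itm2a with -0.97, Ptn with -0.95, Cdkn1c with -0.94 and Med10, a Mediator subunit, with -0.88. Mest, Mme and Itm2a were called in all 6 fits that left out a library, but Mme was not called after thinning. Ptn lost the call without CLL replicate 1, CLL replicate 2, SHAM replicate 1 or SHAM replicate 3. Cdkn1c and Med10 lost it after thinning. Cdkn1c also lost it without CLL replicate 2, CLL replicate 3, SHAM replicate 1 or SHAM replicate 3, and Med10 without CLL replicate 1, SHAM replicate 1 or SHAM replicate 3. Med10 and Gda did not themselves differ between CLL and SHAM past the threshold in either class.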

How the results depend on the processing

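Genes called higher and lower in members numbered 563 and 536 with no filter on low counts, 55 and 57 after thinning to 2000 UMIs, where fewer counts remain, and 95 and 147 with members whose 5 genes hold at least 0.05% of UMIs, a fit without SHAM replicate 3. Leaving out a library gave 105 to 292 higher and 83 to 283 lower. The interaction gave 17 and 5 after thinning and 24 to 127 and 7 to 20 without a library. In other fibroblasts leaving out a library gave 395 to 1145 and 274 to 1254. No alternative called a gene in the opposite direction. The sample labels do not say whether replicate numbers pair the mice, and the main fits did not pair them. Same-numbered libraries' deviations from their group means correlated at 0.022, -0.014 and 0.038 in members. Different numbers gave -0.047 to 0.028 there, all near 0, so these values cannot tell whether the mice were paired. In other fibroblasts same numbers gave -0.227, -0.257 and 0.0037, and different numbers -0.132 to 0.286. The replicate block gave 198 higher and 188 lower in members, and 457 and 358 in other fibroblasts. Share differences (CLL minus SHAM, percentage points) ran from -7.72 to 0.78 when a library was left out, positive without SHAM replicate 2. Thinned to 2000 UMIs they ran from -0.122 to 0.905, negative without CLL replicate 2 (-0.0692) or SHAM replicate 1, and thinned to 4000 UMIs the difference was -0.00359. The exact mean over all thinnings, added after seeing the data, gave -0.0211 at 2000 UMIs and 0.157 at 4000.

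Of 90 named genes called in members, 60 were called in all 6 fits without a library and 46 under every alternative. Log2 differences of 5 markers that did not pass changed sign. When a library was left out, Cd55 ran from -0.043 (without CLL replicate 2) to 0.543, Cd34 from -0.144 to 0.221 (negative without CLL replicate 2 or SHAM replicate 3), Clec3b from -0.410 to 0.205 (positive without CLL replicate 1, CLL replicate 3 or SHAM replicate 3) and Il33 from -0.067 (without SHAM replicate 1) to 0.398. Igfbp6 was 0.211 with at least 4 of the 5 genes and 0.0025 with the 0.05% minimum, and Clec3b 0.209 and 0.106 there and 0.0239 with no filter. Cd34 was -0.0323 without members holding other cells' markers and -0.0960 after thinning. The cause of these changes was not tested. With 25 to 131 members per library, depth limits what can be said of low genes.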
